A study of Mus musculus with 55 samples.

Results

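The genes described here are 35 interferon-induced genes, taken by name from a list and read in 16 libraries of whole mouse islet RNA. They are Ifit1, Ifit2, Ifit3, Ifit3b, Isg15, Usp18, Herc6, Rsad2, Cmpk2, Oas1a, Oas1b, Oas1g, Oas2, Oas3, Oasl1, Oasl2, Mx1, Mx2, Irf7, Irf9, Stat2, Ddx58, Ifih1, Dhx58, Zbp1, Ifi44, Rtp4, Xaf1, Parp9, Parp14, Dtx3l, Bst2, Trim30a, Ifi27l2a and Lgals3bp. The count table held 47937 genes, of which 18828 passed the filter on low counts, and all 35 listed genes were among them. The list was drawn up with the levels of these genes in these libraries in view. Their spread between libraries is therefore given as a description, without a test, and the fits between groups below use the same libraries and are no independent evidence.

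Cells sense viral or misplaced nucleic acid through receptors such as RIG-I (Ddx58), MDA5 (Ifih1) and ZBP1, and answer by secreting type I interferon. Interferon binds its receptor on the same and on neighbouring cells, and the kinases JAK1 and TYK2 then activate the complex ISGF3, to which STAT2 and IRF9 belong. ISGF3 binds the interferon-stimulated response element in promoters and switches on many antiviral genes, among them its own subunits and the sensors. In pancreatic islets this response has long been studied in viral infection and in the autoimmune form of diabetes.

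The study asked what Polycomb repressive complex 2 (PRC2), which methylates histone H3 at lysine 27, does in insulin-producing β cells. Its mice lacked Eed, a core PRC2 subunit, through a Cre recombinase under the rat insulin promoter, so that the deletion was directed to β cells while the libraries held all islet cells. Islets of male C57B6/J mice were isolated and picked by hand and, per the labels, kept in medium with glucose. The groups were wild type at 8 weeks (replicates 1, 3 and 4), heterozygous at 8 weeks (replicates 1, 2 and 3), Eed -/- (called βEedKO) at 8 weeks (replicates 1, 4 and 5), wild type at 25 weeks (replicates 2, 3 and 4), heterozygous at 25 weeks (replicates 1 and 2) and βEedKO at 25 weeks (replicates 2 and 3). Whether the wild-type mice carried Cre was not stated. Each library came from 1 or a few animals, with pooled animals in the βEedKO libraries at 25 weeks, and the p-values below measure the spread between these libraries. Levels are in CPM, the reads of a gene per 1000000 reads of its library after scaling by edgeR's TMM factors. Gene coordinates below are those of GENCODE on GRCm38. In bulk RNA, fewer cells of a type and less RNA per cell cannot be told apart.

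Library totals ran from 4645393 to 22925359 reads. Eed itself was at 23.9, 33.1 and 31.2 CPM in wild-type, 17.2, 17.1 and 20.5 CPM in heterozygous and 14.9, 13.4 and 14.8 CPM in βEedKO libraries at 8 weeks, and at 28.3, 22 and 19.3, 16.3 and 16.9 and 15.6 and 14.2 CPM at 25 weeks. The groups did not overlap between wild type and βEedKO, with a log2 fold change of -1.03, SE 0.18, adjusted p = 0.0223 at 8 weeks and of -0.63, SE 0.21, adjusted p = 0.0804 at 25 weeks. The β cell markers Ins1, Ins2 and Iapp were present in every library, as the islet label requires, and all 8 β cell markers listed were called lower in βEedKO at 25 weeks. Acinar markers summed to 10494 CPM in βEedKO replicate 3 at 25 weeks and to 335690 CPM in βEedKO replicate 2 at 25 weeks. These were the lowest and the highest of the 16 libraries, so that exocrine RNA was most uneven between the βEedKO libraries of that age.

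Before any group is compared, 4 libraries have to be set out, because they stood apart in the listed genes. These were wild-type replicates 3 and 4 and βEedKO replicates 4 and 5, all at 8 weeks. The labels give no batch, date or treatment that these libraries share and the others of their groups lack. Below, the comparisons are given with all 16 libraries, without these 4, and without replicate 1 of each genotype at 8 weeks, the replicate that stood at the low level in wild type and βEedKO. Both of these settings were chosen from the levels of the listed genes themselves, so all p-values from them are descriptions only.

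The sequences before the start sites of 8 listed genes are printed below with any letters that match the core of the response element. RefSeq promoters of GRCm38.p6, from 250 bases before to 50 after a start, were found for 24 of the 35 genes, and Usp18, Oas1b, Oas2, Mx1, Mx2, Dhx58, Rtp4, Parp9, Parp14, Zbp1 and Ifi27l2a had no entry. The core searched was GAAANNGAAA on either strand, with overlapping matches counted. At least 1 match lay in a promoter of 13 of the 24 genes, or 54.2%, compared with 3.99% of the 27025 genes with a promoter in the table. The genes with a match were Ifit1, Ifit3, Ifit3b, Isg15, Rsad2, Oas1a, Oas1g, Oas3, Stat2, Ddx58, Ifih1, Bst2 and Trim30a. The palindromic core of the gamma-activated site, TTCNNNGAA, lay in promoters of 3 of the 24 genes (Ifit2, Oas1a and Bst2), or 12.5%, compared with 9.55% of all genes. Each sequence below gives the 160 bases before the start, 5′ to 3′ on the strand of the gene, with matches to the response element core in capitals. The stretches are chr19:34640729-34640888 (Ifit1, plus strand), chr19:34583369-34583528 (Ifit3, plus strand), chr4:156200819-156200978 (Isg15, minus strand), chr12:26456453-26456612 (Rsad2, minus strand), chr5:120907526-120907685 (Oas1a, minus strand), chr5:120777660-120777819 (Oas3, minus strand), chr8:71537473-71537632 (Bst2, minus strand) and chr6:57580832-57580991 (Herc6, plus strand). Ifit1 to Bst2 are shown for their matches and Herc6 as a listed gene without one.
Ifit1: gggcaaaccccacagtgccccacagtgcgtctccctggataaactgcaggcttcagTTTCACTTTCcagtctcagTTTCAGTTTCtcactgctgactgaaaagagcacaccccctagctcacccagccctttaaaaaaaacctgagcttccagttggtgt
Ifit3: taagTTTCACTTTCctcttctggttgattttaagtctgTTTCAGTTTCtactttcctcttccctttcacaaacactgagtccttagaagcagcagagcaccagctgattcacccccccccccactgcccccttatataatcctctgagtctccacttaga
Isg15: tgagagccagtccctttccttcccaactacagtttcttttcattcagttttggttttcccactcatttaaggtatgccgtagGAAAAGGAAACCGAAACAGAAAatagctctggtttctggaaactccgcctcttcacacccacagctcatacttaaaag
Rsad2: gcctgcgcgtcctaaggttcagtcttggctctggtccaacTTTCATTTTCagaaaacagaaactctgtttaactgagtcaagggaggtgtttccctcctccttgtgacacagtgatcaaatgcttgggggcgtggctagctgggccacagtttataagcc
Oas1a: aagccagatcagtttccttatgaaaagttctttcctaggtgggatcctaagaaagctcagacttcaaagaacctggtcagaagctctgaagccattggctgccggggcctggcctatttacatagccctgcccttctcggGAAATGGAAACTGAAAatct
Oas3: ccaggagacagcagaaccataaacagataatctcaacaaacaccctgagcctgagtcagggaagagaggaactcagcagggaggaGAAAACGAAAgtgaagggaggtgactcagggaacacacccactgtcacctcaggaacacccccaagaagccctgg
Bst2: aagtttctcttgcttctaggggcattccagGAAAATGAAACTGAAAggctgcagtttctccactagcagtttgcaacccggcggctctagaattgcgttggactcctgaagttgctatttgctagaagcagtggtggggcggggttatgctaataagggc
Herc6: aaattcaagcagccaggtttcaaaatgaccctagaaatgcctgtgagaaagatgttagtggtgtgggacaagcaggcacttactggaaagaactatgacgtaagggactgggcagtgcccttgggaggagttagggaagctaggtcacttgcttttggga

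Ifit1 and Ifit3 each held a pair of separate matches on the strand opposite to the gene, with first bases at -104 and -85 for Ifit1 and at -156 and -122 for Ifit3, where the start is base 0. Isg15 held 3 matches that overlap by 4 bases each and form 1 run of GAAA repeats from -78. The Oas1a run began at -20, close to the start, and the single Oas3 match at -75. A match is a string of letters in a window and was not tested as a binding site. Among the genes with a match, the highest library exceeded the lowest by a median of 44.8-fold over the 12 genes with a ratio. Among the genes with a promoter but no match the median was 26.1-fold over 10 genes. The ranges, 10.2 to 752 and 2.14 to 93, overlap, and a link between match and spread was not tested.

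In 33 of the 35 listed genes the 4 highest libraries of the 16 were wild-type replicates 3 and 4 and βEedKO replicates 4 and 5 at 8 weeks. The same 4 libraries were the highest for 8.18% of all 18828 genes tested. The exceptions were Zbp1 and Ifi27l2a. Together the 35 genes summed to 658, 6418 and 7252 CPM in wild-type replicates 1, 3 and 4, to 555, 553 and 586 CPM in the heterozygous replicates and to 575, 8717 and 9129 CPM in βEedKO replicates 1, 4 and 5 at 8 weeks. At 25 weeks the sums were 574, 671 and 614 CPM in wild type, 701 and 623 CPM in heterozygous and 579 and 813 CPM in βEedKO replicates 2 and 3. In the 4 libraries these genes took 0.59%, 0.739%, 0.952% and 0.892% of all reads, and in the other 12 between 0.044% and 0.122%.

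**Figure D1:**
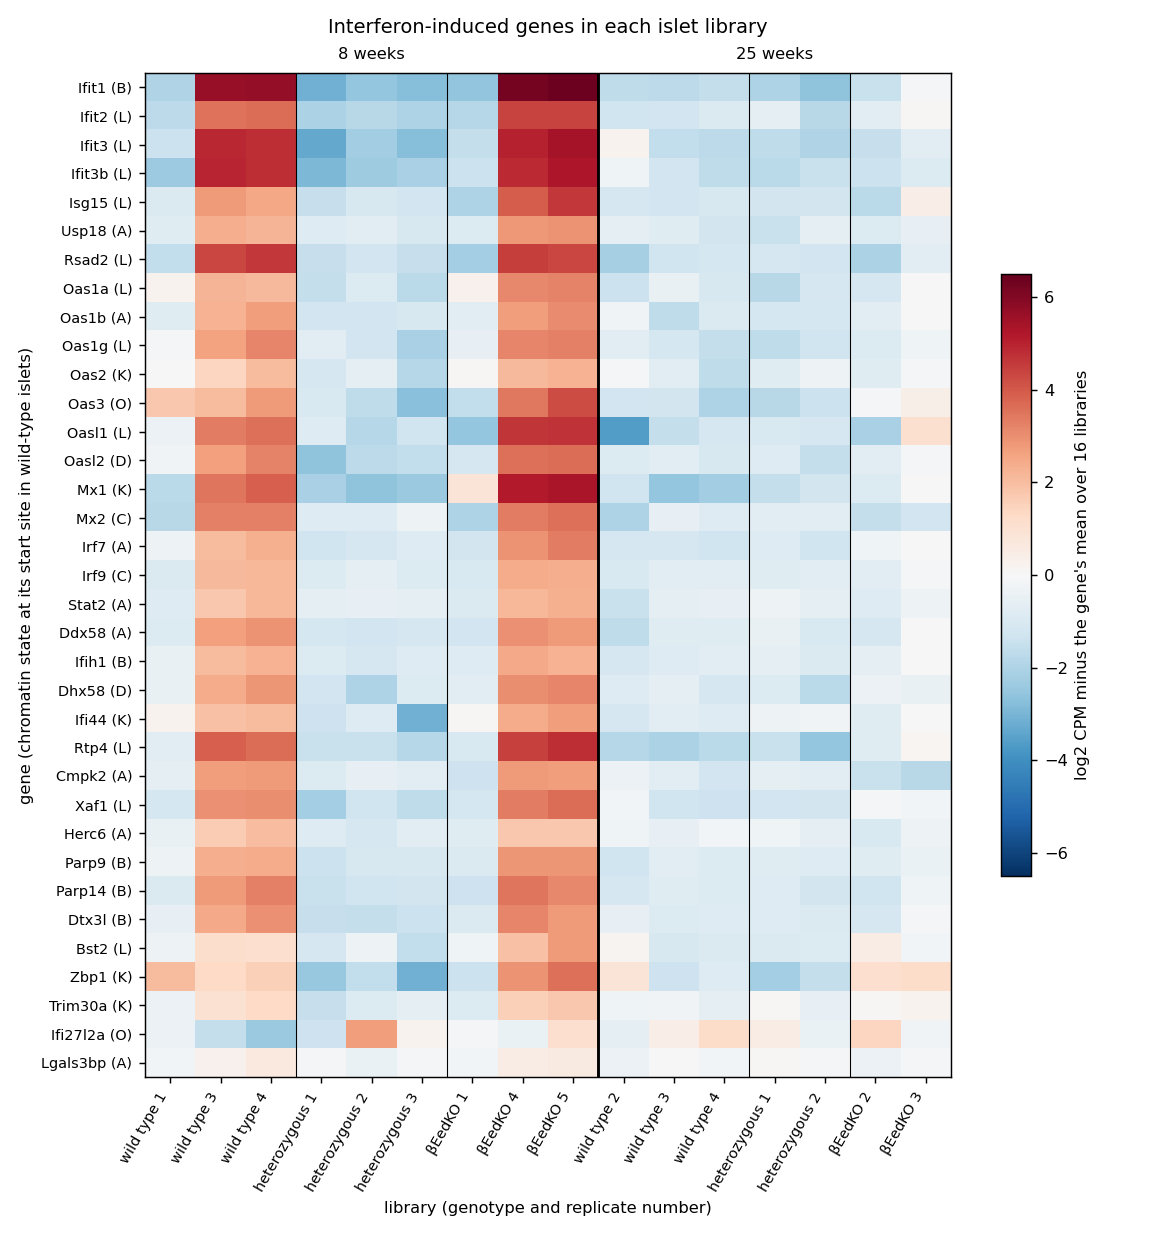
Each row is 1 of the 35 interferon-induced genes, with the letter of the chromatin state at its start site, and each column is 1 of the 16 libraries, grouped by age and genotype. Colour gives log2 CPM minus the mean of that gene over the libraries, and wild-type replicates 3 and 4 and βEedKO replicates 4 and 5 at 8 weeks are above the mean in nearly every row, with Ifi27l2a the clearest exception.

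The median over the 35 genes of log2 CPM minus each gene's own mean was 2.40 and 2.75 in wild-type replicates 3 and 4 and 3.0 and 3.16 in βEedKO replicates 4 and 5 at 8 weeks. It was -0.56 in wild-type replicate 1, -1.01 in βEedKO replicate 1 and -1.34, -1.22 and -1.28 in the heterozygous libraries of the same age. At 25 weeks 6 of the 7 libraries lay between -1.10 and -0.80, and βEedKO replicate 3 at -0.13, or at 0.45 when scaled by library size alone. That library was the highest of the 25-week libraries for 24 of the 35 genes and the fifth highest of all 16 for 16 of them. The spread inside a group differed accordingly. The range between replicates had a median over the listed genes of 3.34 log2 units in wild type and 4.13 in βEedKO at 8 weeks, beside 0.787 and 0.886 over all genes tested. In the 3 heterozygous libraries at 8 weeks the same medians were 0.488 and 0.457.

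Ifit1, at chr19:34640871-34650009 on the plus strand, showed the widest range. The IFIT proteins bind foreign RNA that lacks the cap marks of the host and block its translation. Ifit1 was at 6.79, 1358 and 1389.9 CPM in wild-type replicates 1, 3 and 4, at 2.93, 4.48 and 3.79 CPM in the heterozygous libraries and at 4.32, 1959 and 2199 CPM in βEedKO replicates 1, 4 and 5 at 8 weeks. At 25 weeks it was at 8.29, 7.9 and 8.74 CPM in wild type, 6.54 and 4.14 CPM in heterozygous and 9.59 and 24.4 CPM in βEedKO libraries. The highest library was 752-fold above the lowest, and the fourth highest was 55.7-fold above the fifth. Ifit3 was at 4.82, 386 and 364 CPM in wild type, 1.18, 2.57 and 1.79 CPM in heterozygous and 4.36, 415 and 554 CPM in βEedKO at 8 weeks, and at 15.3, 4.21 and 3.87, 3.98 and 3.27 and 4.49 and 7.55 CPM in these genotypes at 25 weeks. Outside the 4 libraries its highest value was in wild-type replicate 2 at 25 weeks. Ifit2 ran from 2.58 to 239.6 CPM and Ifit3b from 0.697 to 234 CPM, with the same 4 libraries on top. Ifit3 and Ifit3b are near-identical copies, and the split of reads between them is uncertain.

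Rsad2, at chr12:26442746-26456452 on the minus strand, and its neighbour Cmpk2, at chr12:26469204-26479837 on the plus strand, encode viperin, which makes a chain-terminating nucleotide, and a nucleotide kinase that feeds it. Rsad2 was at 15.7, 979 and 1166 CPM in wild type, 16.6, 20.4 and 16.6 CPM in heterozygous and 10.2, 1068 and 956 CPM in βEedKO at 8 weeks. At 25 weeks it was at 10.5, 19.4 and 21.9, 22.3 and 20.4 and 11.3 and 28.8 CPM. Wild-type replicate 4 had the highest level of both genes, so that for this pair the βEedKO libraries were not above the wild-type ones. Cmpk2 was at 38.8, 378 and 394 CPM in wild type, 30.6, 40 and 35.2 CPM in heterozygous and 22.7, 393 and 373 CPM in βEedKO at 8 weeks, and at 44.5, 34.8 and 24.4, 37.2 and 36.1 and 20.8 and 16.2 CPM at 25 weeks, where both βEedKO libraries were below all 3 wild-type ones.

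Isg15, at chr4:156199424-156200818 on the minus strand, encodes a ubiquitin-like protein that is attached to targets by HERC ligases and removed by Usp18, which also dampens signalling at the interferon receptor. Isg15 was at 3.17, 43.1 and 35.6 CPM in wild type, 2.09, 2.97 and 2.55 CPM in heterozygous and 1.42, 96.5 and 149 CPM in βEedKO at 8 weeks. At 25 weeks it was at 2.83, 2.48 and 2.94, 2.61 and 2.63 and 1.75 and 8.28 CPM, with βEedKO replicate 3 above the other 6 libraries. In the 4 libraries the βEedKO values lay above the wild-type values without overlap. Usp18 was at 18.3, 162 and 147 CPM in wild type, 17.4, 18.6 and 15.2 CPM in heterozygous and 16.8, 225 and 236 CPM in βEedKO at 8 weeks, and at 21.1, 18 and 13.7, 11.6 and 19.9 and 16.7 and 21.8 CPM at 25 weeks. Its level in the other 12 libraries was more even than that of Isg15, between 11.6 and 21.8 CPM. Herc6, the mouse ligase of ISG15, ran from 5.28 to 46.8 CPM.

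Mx1 and Mx2 belong to a family of antiviral dynamin-like GTPases. Mx1 was at 1.4, 55.9 and 74.5 CPM in wild type, 1.04, 0.71 and 0.826 CPM in heterozygous and 8.87, 177 and 200.3 CPM in βEedKO at 8 weeks, and at 1.96, 0.752 and 0.928, 1.58 and 2.1 and 2.59 and 4.76 CPM at 25 weeks. At 8 weeks βEedKO replicate 1 lay above wild-type replicate 1 and βEedKO replicates 4 and 5 above wild-type replicates 3 and 4, and at 25 weeks both βEedKO libraries lay above all 3 wild-type ones. Mx2 was at 2.6, 91.2 and 91.9 CPM in wild type, 5.15, 5.1 and 7.44 CPM in heterozygous and 2.18, 92.5 and 112 CPM in βEedKO at 8 weeks. At 25 weeks it was at 2.18, 6.32 and 5.18, 5.5 and 5.54 and 3.04 and 3.88 CPM, with its lowest values in βEedKO replicate 1 of 8 weeks and in the second wild-type replicate of 25 weeks. The Mx1 gene lies at chr16:97447035-97462907 on the minus strand.

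The OAS enzymes make a short nucleotide chain that activates RNase L, and the OAS-like proteins are their relatives. Oas1a was at 3.62, 14.7 and 13.9 CPM in wild type, 0.975, 1.6 and 0.826 CPM in heterozygous and 3.8, 27.9 and 29.8 CPM in βEedKO at 8 weeks, and at 1.09, 2.18 and 1.47, 0.817 and 1.4 and 1.37 and 3.23 CPM at 25 weeks. The replicates 1 of wild type and βEedKO lay above all 3 heterozygous libraries. Oasl2 was at 18.1, 135 and 198 CPM in wild type, 3.34, 6.39 and 6.89 CPM in heterozygous and 9.73, 254 and 265 CPM in βEedKO at 8 weeks, and at 11.6, 12.9 and 10.4, 11.8 and 7.18 and 12.9 and 19.3 CPM at 25 weeks. Oas3 had few reads: it reached 15 CPM in βEedKO replicate 5, and had 0 reads in heterozygous replicate 3 at 8 weeks, which allows a level of up to 0.206 CPM by counting error alone. Oas1b, Oas1g, Oas2 and Oasl1 reached 41.4, 25.7, 28.6 and 243 CPM in βEedKO replicate 5 at 8 weeks. The Oas1 genes are close copies, so the reads of each are uncertain.

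**Figure D2:**
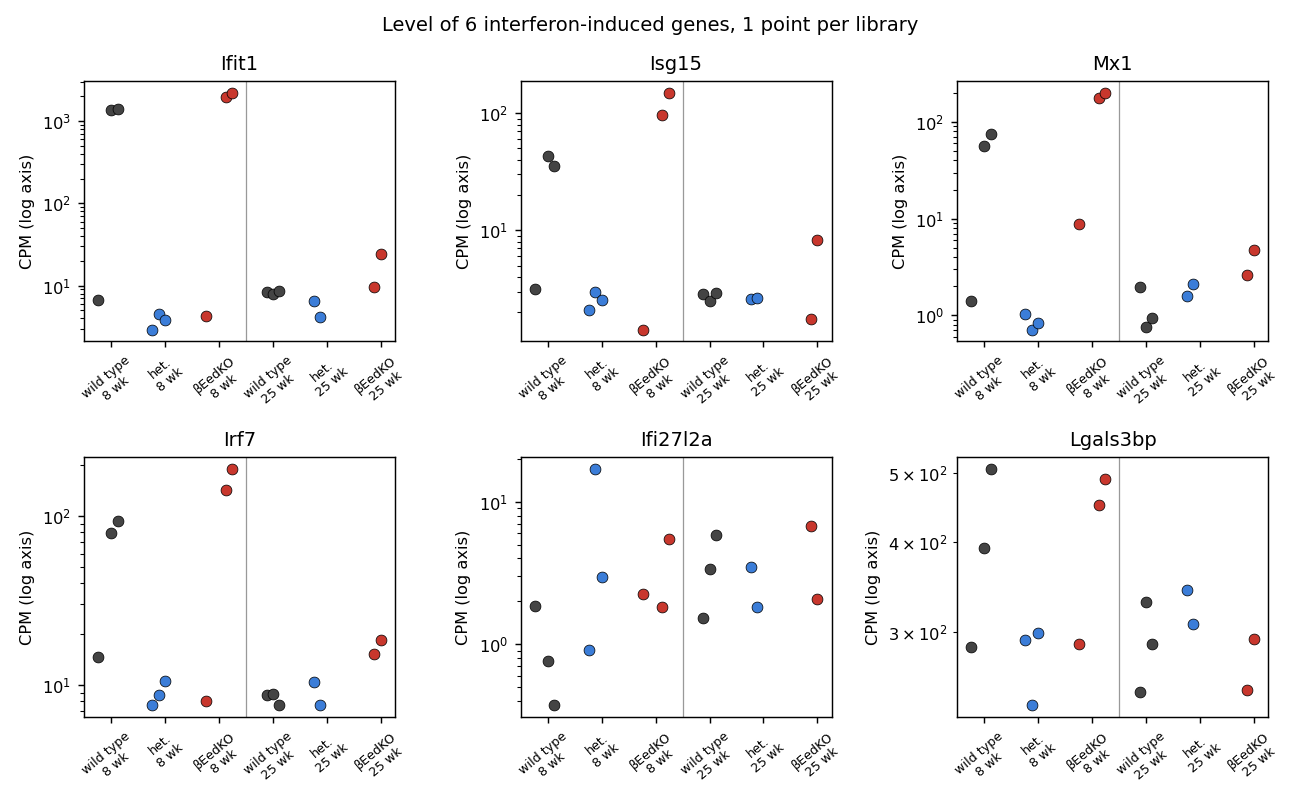
CPM on a log axis for Ifit1, Isg15, Mx1, Irf7, Ifi27l2a and Lgals3bp, with 1 point per library in 6 groups of genotype and age. At 8 weeks the wild-type and βEedKO groups of the first 4 genes split into 1 low and 2 high libraries, Ifi27l2a was highest in a heterozygous library, and Lgals3bp varied least, by 2.14-fold.

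The helicases RIG-I and MDA5 sense viral RNA in the cytoplasm. Ddx58 was at 23.8, 280.4 and 331 CPM in wild type, 19.4, 18.4 and 20.6 CPM in heterozygous and 18.3, 339.8 and 301 CPM in βEedKO at 8 weeks, and at 13.7, 25.3 and 25.1, 31.1 and 21.5 and 20.5 and 44.8 CPM at 25 weeks. Ifih1 was at 19.2, 113 and 128 CPM in wild type, 14.4, 12.4 and 14.7 CPM in heterozygous and 14.7, 147 and 129 CPM in βEedKO at 8 weeks, and at 12.6, 15 and 16, 16.9 and 14.1 and 17.5 and 27.4 CPM at 25 weeks. In the 4 libraries both lay several-fold above the rest, and wild-type and βEedKO values were close to each other. Dhx58, whose product LGP2 modulates the other RNA helicases, ran from 1.91 to 72.3 CPM. Zbp1, a sensor of left-handed nucleic acid that can set off necroptosis, had another order of libraries. It was at 4.31, 2.44 and 3.02 CPM in wild type, 0.0697, 0.222 and 0 CPM in heterozygous and 0.285, 7.87 and 12.7 CPM in βEedKO at 8 weeks, and at 1.74, 0.301 and 0.464, 0.109 and 0.233 and 2.13 and 2.26 CPM at 25 weeks. Wild-type replicate 1 thus exceeded wild-type replicates 3 and 4, and at 25 weeks both βEedKO libraries were above the wild-type ones.

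Irf9, at chr14:55603571-55610030 on the plus strand, and Stat2, at chr10:128270559-128292849 on the plus strand, encode subunits of ISGF3, and Irf7, at chr7:141262706-141266481 on the minus strand, the factor that amplifies transcription of interferon genes. Irf9 was at 21.4, 175 and 185 CPM in wild type, 22.3, 26.8 and 22.3 CPM in heterozygous and 20.3, 219 and 213 CPM in βEedKO at 8 weeks, and at 20.5, 24.6 and 24.1, 23.5 and 25.1 and 25.3 and 39.1 CPM at 25 weeks. Stat2 was at 29.2, 175 and 235 CPM in wild type, 33.3, 35.9 and 33.3 CPM in heterozygous and 27.2, 233 and 258 CPM in βEedKO at 8 weeks, and at 19.2, 35.1 and 36.1, 41.7 and 35.5 and 29.1 and 41.6 CPM at 25 weeks. The gap between the fourth and the fifth highest library was 4.48-fold for Irf9 and 4.2-fold for Stat2, well short of that of Ifit1. Irf7 was at 14.7, 79.4 and 93.5 CPM in wild type, 7.59, 8.7 and 10.5 CPM in heterozygous and 8.07, 142 and 191 CPM in βEedKO at 8 weeks, and at 8.72, 8.8 and 7.58, 10.4 and 7.58 and 15.3 and 18.4 CPM at 25 weeks. Both βEedKO libraries at 25 weeks lay above all wild-type and heterozygous libraries of that age.

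Bst2, or tetherin, holds budding virus at the cell surface. It was at 8.37, 23.7 and 22.8 CPM in wild type, 4.88, 8.25 and 3.37 CPM in heterozygous and 8.73, 40.5 and 72.1 CPM in βEedKO at 8 weeks, and at 12, 5.12 and 5.49, 5.45 and 5.6 and 15 and 9.32 CPM at 25 weeks. The fourth highest library was 1.52-fold above the fifth, βEedKO replicate 2 at 25 weeks. Trim30a, a ubiquitin ligase family member that restrains Toll-like receptor signalling, was at 4.06, 10.8 and 13.5 CPM in wild type, 1.81, 2.79 and 3.44 CPM in heterozygous and 2.8, 15.7 and 18.5 CPM in βEedKO at 8 weeks, and at 4.36, 4.51 and 3.56, 5.61 and 3.62 and 5.63 and 6.3 CPM at 25 weeks. Lgals3bp, a secreted glycoprotein, was at 286, 393 and 507 CPM in wild type, 292, 237 and 299 CPM in heterozygous and 289, 450.4 and 491 CPM in βEedKO at 8 weeks, and at 247, 330.3 and 289, 343 and 308 and 249 and 293 CPM at 25 weeks. Its highest library was 2.14-fold above its lowest, the smallest ratio of the list.

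Ifi27l2a, an interferon-induced membrane protein gene, had another order of libraries too. Its gene lies at chr12:103442167-103443680 on the minus strand. It was at 1.84, 0.756 and 0.371 CPM in wild type, 0.906, 17.1 and 2.96 CPM in heterozygous and 2.23, 1.81 and 5.45 CPM in βEedKO at 8 weeks, and at 1.53, 3.39 and 5.88, 3.49 and 1.81 and 6.77 and 2.06 CPM at 25 weeks. Its highest library was heterozygous replicate 2 at 8 weeks and its lowest wild-type replicate 4, one of the 4 that stood apart. In heterozygous replicate 2 the 5 mesenchymal markers summed to 160.4 CPM, beside 39.3 and 39.2 CPM in heterozygous replicates 1 and 3, with Dcn at 83 CPM. The same markers summed to 164 CPM in βEedKO replicate 1 at 8 weeks and to 278 and 207 CPM in βEedKO at 25 weeks, where Ifi27l2a was lower than in that library. The part of mesenchymal cells in the level of Ifi27l2a was not tested. Parp9, its ubiquitin ligase partner Dtx3l and Parp14 lie close together on chromosome 16 and reached 253, 267 and 689 CPM in βEedKO replicate 4 at 8 weeks. Rtp4, a receptor-transporting protein gene, was at 5.9, 148 and 125 CPM in wild type, 3.62, 3.59 and 2.69 CPM in heterozygous and 4.89, 217 and 276 CPM in βEedKO at 8 weeks, and at 2.62, 2.33 and 2.86, 3.6 and 1.63 and 5.71 and 11 CPM at 25 weeks. Both βEedKO libraries at 25 weeks were above the other 5 of that age. Xaf1 and Ifi44 reached 151 and 22.8 CPM in βEedKO replicate 5 at 8 weeks.

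Between βEedKO and wild type at 8 weeks, 32 of the 35 genes had a fitted log2 fold change above 0 and 3 below, with a median of 0.39 over the genes beside 0.00258 over all genes tested. None was called at an adjusted p under 0.05 (edgeR's quasi-likelihood test, Benjamini-Hochberg), where 0.627% of all genes were called, none had an unadjusted p under 0.05, beside 9.91% of all genes, and DESeq2 called none, where it called 2.33% of all genes. Isg15 had a log2 fold change of 1.59, SE 1.06, adjusted p = 0.688, Mx1 of 1.55, SE 1.01, adjusted p = 0.682 and Ifit1 of 0.60, SE 1.40, adjusted p = 0.945. These differences were smaller than the spread between replicates of either group. The groups overlapped for all 35 genes, while 6.49% of all genes lay higher and 4.84% lower in βEedKO without overlap.

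Without replicate 1 of each genotype, the median was 0.50 and 12 of the 35 genes had an unadjusted p under 0.05, where 16.9% of all genes did. The lowest adjusted p was then 0.0561, for Mx1, and no listed gene was called. Both βEedKO libraries lay above both wild-type libraries for 25 of the 35 genes and below for none, beside 24.2% of all genes above and 25.7% below. Without the 4 libraries that stood apart, wild type and βEedKO held 1 library each, which were assumed to vary like the other groups, and the median was -0.28 with 26 genes lower and none called. In that setting 4 genes had an unadjusted p under 0.05, beside 4.47% of all genes. With single libraries left out of the 16, the median went from -0.04 without wild-type replicate 1 to 0.95 without βEedKO replicate 1, and no listed gene was called.

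At 25 weeks the βEedKO to wild-type difference had a median of 0.52 over the listed genes, beside 0.0807 over all genes, with 29 genes higher and 6 lower. No listed gene was called by edgeR, where 8.99% of all genes were called, and DESeq2 called none, where it called 12.9%. None had an unadjusted p under 0.05, beside 23% of all genes. The largest fitted differences were those of Oas3 (2.18, SE 1.35, adjusted p = 0.368), Oasl1 (1.90, SE 1.41, adjusted p = 0.467), Mx1 (1.78, SE 1.34, adjusted p = 0.477) and Rtp4 (1.69, SE 1.24, adjusted p = 0.463). Both βEedKO libraries lay above all 3 wild-type libraries for 12 genes, namely Ifit1, Ifit2, Xaf1, Rtp4, Oas3, Trim30a, Zbp1, Ifih1, Dhx58, Irf7, Irf9 and Mx1, and below for Cmpk2. Over all genes, 24.6% lay above and 15.9% below in this way.

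**Figure D3:**
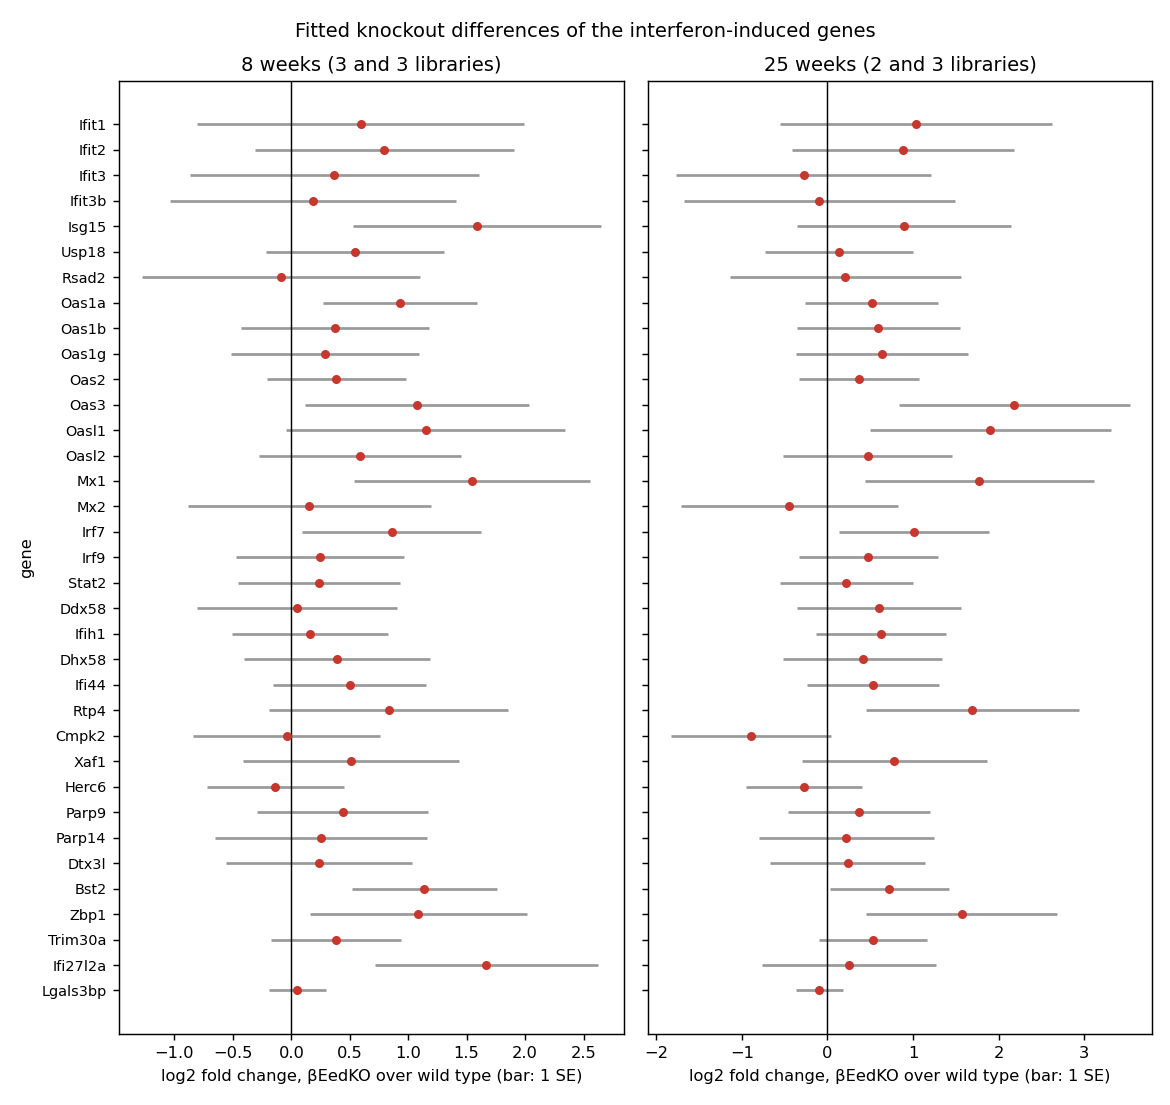
Fitted log2 fold change of βEedKO over wild type for each of the 35 genes at 8 weeks (left) and 25 weeks (right), with bars of 1 standard error from edgeR's quasi-likelihood fit. Most points lie above 0 at both ages, Cmpk2 and Mx2 lie lowest at 25 weeks, and no gene passed the threshold at either age.

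The fit takes 1 estimate of the spread of each gene from all 6 groups, the 8-week ones included. Without replicate 1 of each genotype at 8 weeks, 4 listed genes were called at 25 weeks, where 15.4% of all genes were called: Irf7 (log2 fold change 1.00, SE 0.20, adjusted p = 0.00848), Mx1 (1.80, SE 0.37, adjusted p = 0.00931) and Rtp4 (1.68, SE 0.35, adjusted p = 0.0104) were higher in βEedKO, and Cmpk2 (-0.91, SE 0.23, adjusted p = 0.0247) was lower. Without the 4 libraries that stood apart, 3 listed genes were called at 25 weeks, where 12.4% of all genes were called. Irf7 (1.01, SE 0.23, adjusted p = 0.0222) and Rtp4 (1.69, SE 0.41, adjusted p = 0.0295) were higher and Cmpk2 (-0.90, SE 0.25, adjusted p = 0.0469) lower. With βEedKO replicate 3 left out of the 16 libraries, the median at 25 weeks was 0.07. For Isg15 the log2 fold change went from 0.90 to -0.71, and for Oasl1 from 1.90 to -0.59. Markers of other cells differed between the same groups. Ptprc, which marks all leukocytes, was at 10.7, 6.32 and 6.5 CPM in wild type and 29.4 and 30.4 CPM in βEedKO at 25 weeks. It was called higher, the only 1 of 3 such markers that was called. Of 5 duct markers, which summed to 298, 229 and 287 and 694 and 562 CPM, 3 were called higher. Of 5 alpha cell markers 1 was called higher, and of 5 B cell markers 1 was called lower. Macrophage markers, with 0 of 10 called, 3 at an unadjusted p under 0.05 and none at 0 in any library, summed to 205, 115 and 102 and 492 and 151 CPM, so that βEedKO replicate 2 had the higher sum while replicate 3 had the higher level of most listed genes. Mesenchymal markers, with 0 of 5 called and 2 at an unadjusted p under 0.05, summed to 95.5, 63.4 and 62.5 and 278 and 207 CPM. Acinar markers, with 0 of 7 called, summed to 75306, 25248 and 182707 and 335690 and 10494 CPM. The part of these cells in the differences was not tested. The difference between the knockout effects at 25 and 8 weeks had a median of 0.02 over the listed genes. It was called for none by edgeR, where 0.478% of all genes were called, for none by DESeq2, where 2.29% were called, and no unadjusted p was under 0.05, beside 9.67% of all genes. Without the 4 libraries the median was 0.67 with 28 genes higher, none called and 8 at an unadjusted p under 0.05, beside 10.6% of all genes, and without replicates 1 at 8 weeks it was -0.06 with none called.

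Between heterozygous and wild type at 8 weeks, 34 of the 35 genes were lower in heterozygous libraries, with a median log2 fold change of -3.42, and Ifi27l2a was higher. No listed gene was called by edgeR, where 0% of all genes were called, while 34 had an unadjusted p under 0.05, beside 14.6% of all genes. Ifit1 had a log2 fold change of -7.94, SE 1.90, adjusted p = 0.215 and Lgals3bp of -0.52, SE 0.25, adjusted p = 0.351. All 3 heterozygous libraries lay below all 3 wild-type ones for 26 of the 35 genes, beside 9.09% of all genes. DESeq2 called 28 listed genes lower, where it called 2.16% of all genes. With wild-type replicate 1 left out, edgeR called 27 listed genes, where 3.2% of all genes were called, and with βEedKO replicate 1 left out it called 13, where 0.254% were called. Without the 4 libraries the median was -0.60, none was called and 8 had an unadjusted p under 0.05, beside 5.83% of all genes, and without replicates 1 it was -3.85 with 33 called lower and Ifi27l2a called higher, where 11.6% of all genes were called. At 25 weeks heterozygous and wild-type libraries differed by a median of -0.07, with 17 genes higher and 18 lower. None was called by edgeR or DESeq2, where they called 0% and 0.0159% of all genes, and none had an unadjusted p under 0.05, beside 1.12% of all genes. The median was -0.06 without the 4 libraries and -0.07 without replicates 1 at 8 weeks, with none called in either setting. Both heterozygous libraries lay above all 3 wild-type ones for Ifi44 and below for Zbp1 and Ifit1, beside 8.9% of all genes above and 7.06% below.

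Between wild-type libraries of 25 and of 8 weeks, 34 of the 35 genes were lower at 25 weeks, with a median log2 fold change of -2.99. None was called by edgeR, where 0.0212% of all genes were called, 30 had an unadjusted p under 0.05 beside 14.2% of all genes, and DESeq2 called 25 lower, where it called 1.29% of all genes. Ifit1 had a log2 fold change of -6.79, SE 1.81, adjusted p = 0.272. All 3 libraries of 25 weeks lay below all 3 of 8 weeks for 14 of the 35 genes, beside 8.88% of all genes. With wild-type replicate 1 at 8 weeks left out, edgeR called 1 listed gene, where 0.144% of all genes were called. Without the 4 libraries the median was -0.18 with none called and 4 at an unadjusted p under 0.05, beside 6.26% of all genes, and the Ifit1 value turned to 0.29. Without replicates 1 at 8 weeks the median was -3.48 with 32 genes called lower, where 15.2% of all genes were called. Age and whatever else differed between the preparations cannot be told apart.

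The ligands of this pathway were low in every library. Of 18 type I interferon genes only Ifnb1 passed the filter on low counts. Ifnb1, the first interferon most cells make, was at 0.0634, 3.49 and 0.953 CPM in wild type, 1.39, 1.2 and 0.62 CPM in heterozygous and 0.142, 3.66 and 6.92 CPM in βEedKO at 8 weeks, and at 0, 2.11 and 2.01, 4.36 and 0.292 and 0 and 1.94 CPM at 25 weeks. Its highest library was βEedKO replicate 5 at 8 weeks, but heterozygous replicate 1 at 25 weeks came next, and wild-type replicate 4 at 8 weeks lay below several libraries in which the listed genes were low. The other 17 type I genes summed to at most 0.387 CPM in a library. Ifng, the type II interferon, reached 0.451 CPM in βEedKO replicate 4 at 8 weeks, and Ifnl2 and Ifnl3 had 0 reads in every library, which allows up to 0.121 to 0.654 CPM per library by counting error alone.

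**Figure D4:**
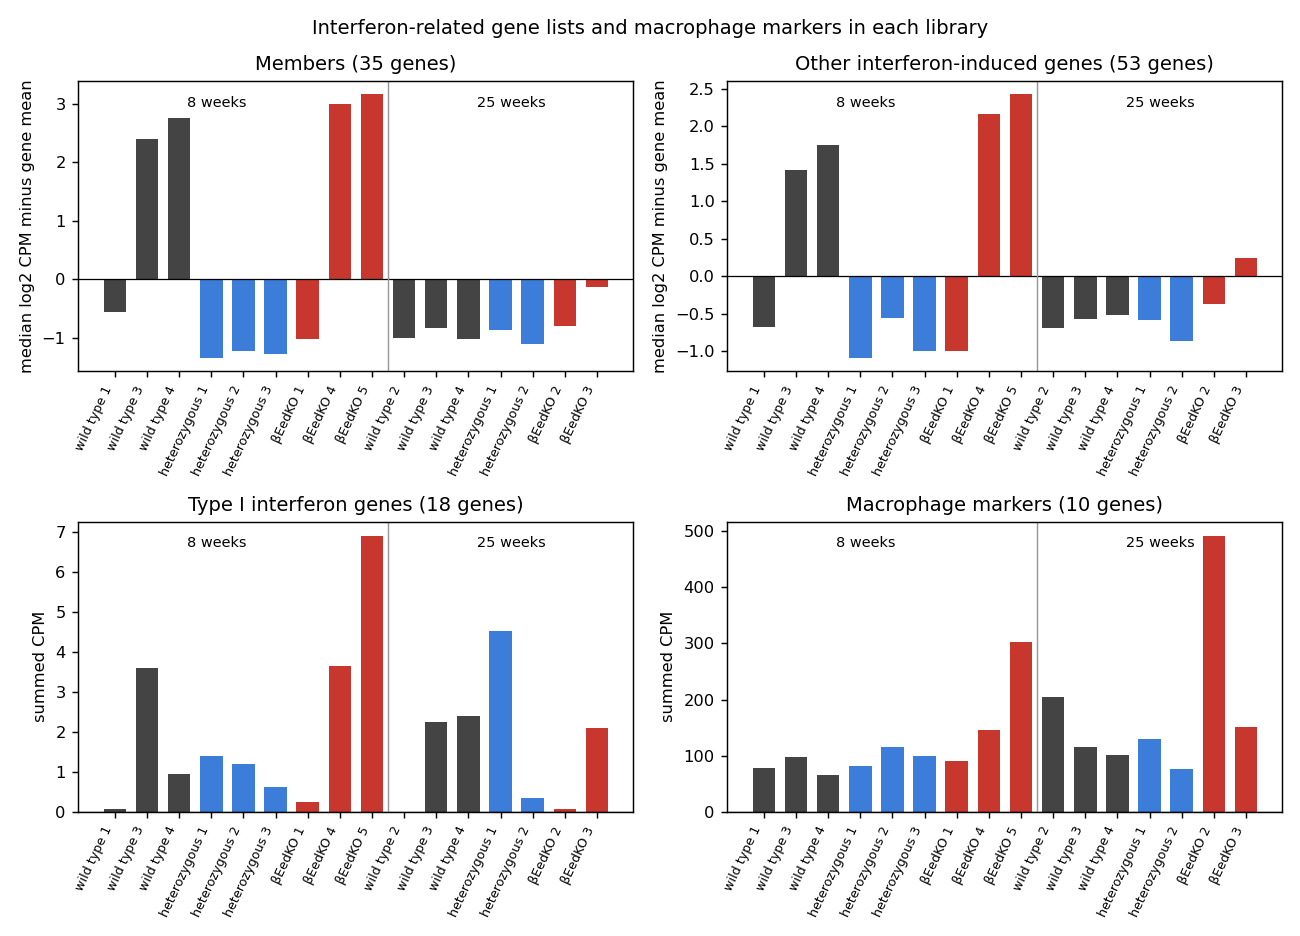
Bars show, for each of the 16 libraries, the median centred log2 CPM of the 35 listed genes and of 53 other interferon-induced genes (top), and the summed CPM of 18 type I interferon genes and of 10 macrophage markers (bottom), with black for wild type, blue for heterozygous and red for βEedKO. The top panels share their 4 high libraries, and the bottom panels have high libraries outside those 4.

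The receptors were expressed in all libraries. Ifnar1 and Ifnar2, which form the type I receptor, ran from 23.3 to 42.7 and from 11.3 to 31.8 CPM, while Ifngr2, a subunit of the type II receptor, was at 18.2, 61.9 and 58.6 CPM in wild type, 11.6, 13.7 and 16.5 CPM in heterozygous and 14.3, 65.6 and 70 CPM in βEedKO at 8 weeks. Ifngr2 thus had the same 4 libraries on top, and Ifngr1 and Il10rb did not. Ifnlr1, the specific subunit of the type III receptor, was at 2.18, 2.18 and 3.33 CPM in wild type and 5.78 and 13.8 CPM in βEedKO at 25 weeks and was called higher there, the only call among the 6 receptor genes in the 6 comparisons (log2 fold change 1.93, SE 0.49, adjusted p = 0.0253). At 8 weeks it was at 3.81, 5.23 and 5.03 CPM in wild type and 3.99, 11.2 and 8.48 CPM in βEedKO. Among 10 genes of signal transduction, 14 tested sensors and adaptors and 6 other interferon regulatory factors, none was called by edgeR in any comparison. At most 4, 3 and 4 of them had an unadjusted p under 0.05 in a comparison. The counts of 4 were for heterozygous at 8 weeks, beside 14.6% of all genes. That of 3 was for βEedKO at 25 weeks, beside 23%. Signal transduction genes summed to 500.4 and 447 CPM in wild-type and βEedKO replicates 1 at 8 weeks. They summed to 426 and 414 CPM in replicates 2 of these genotypes at 25 weeks, and to 787 to 1554 CPM elsewhere. Over the same libraries the regulatory factors summed to 176, 143, 143 and 166 CPM, beside 348 to 769 CPM elsewhere.

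Of 53 other interferon-induced genes, all tested, 44 also had the 4 libraries on top, beside 8.18% of all genes. None was called by edgeR in the 6 comparisons, where up to 8.99% of all genes were called. Unadjusted p-values under 0.05 were found for 39 of them between heterozygous and wild type at 8 weeks, beside 14.6% of all genes. Between the ages of wild type they were found for 31, beside 14.2% of all genes. Among the 10 genes outside the list whose centred profile over the 16 libraries was closest to the median of the list, by root mean square difference in log2 units, were Irgm2 (0.203), Samd9l (0.21), Gbp7 (0.262), Igtp (0.299), Tap1 (0.306), Tnfsf10 (0.364), Irgm1 (0.399), Gm20559 (0.463) and Trim21 (0.502). Of these 9, 7 stand in the list of other interferon-induced genes, while Tnfsf10, which encodes the death ligand TRAIL, and Gm20559 do not. Within the list, Parp9 (0.197) and Dtx3l (0.217) were closest to the median and Ifi27l2a (2.38) and Ifit1 (1.89) farthest.

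Markers of other cells in the 4 libraries were mixed. Macrophage markers summed to 78.7, 98.2 and 66 CPM in wild-type replicates 1, 3 and 4, 82.3, 116 and 99.7 CPM in the heterozygous and 91.2, 146 and 303 CPM in βEedKO replicates 1, 4 and 5 at 8 weeks. Wild-type replicate 4 was thus the lowest of the 16 and βEedKO replicate 5 the second highest, with Adgre1, which encodes F4/80, at 55.6 CPM there against 2.01 to 13.1 CPM elsewhere. Between βEedKO and wild type at 8 weeks, edgeR called 0 of these 10 markers. Their median log2 fold change was 1.36, and 5 had an unadjusted p under 0.05, beside 9.91% of all genes. Of 3 markers of all leukocytes 2 did, with 0 called, and of 7 tested T and NK cell and 5 B cell markers 0 did. T and NK cell markers summed to 6.28, 0.523 and 0.424 CPM in wild type and 0.901, 19.9 and 1.38 CPM in βEedKO at 8 weeks, and Cd3d was at 0 in wild-type replicates 3 and 4 and βEedKO replicate 5. Glucagon RNA (Gcg) was highest in the same 4 libraries, at 25666, 29786, 15673 and 24737 CPM, and at 5237 to 12352 CPM in the others. Of the 8 β cell markers, 5 (Mafa, Ucn3, Nkx6-1, Slc2a2 and Pdx1) had their lowest 8-week values in these 4 libraries, with Mafa, a factor of mature β cells, at 146, 26.6 and 42.4 CPM in wild type, 167, 111 and 147 CPM in heterozygous and 80.8, 36.4 and 35.8 CPM in βEedKO. The other 3, Ins1, Ins2 and Iapp, did not, and the list summed to 185556, 205681 and 136650 CPM in wild type and 179779, 130087 and 213723 CPM in βEedKO at 8 weeks. The part of cell composition in the level of the listed genes was not tested.

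The chromatin at the start sites of these genes in wild-type islets was read from the deposited segmentation, which gives each 200-bp bin of the autosomes 1 of 24 letters from averaged histone mark and methylation data and carries no levels. Whether the islets behind it stood at the high or the low level of the listed genes is not known. By the names in the study's key, states A to D mark active starts and their flanks. K to M are bivalent (a term for marks of both activity and Polycomb repression), and N to P are Polycomb repressed. The start lay in A to D for 17 of the 35 genes, or 48.6%, beside 46.6% of 20445 protein-coding genes with a state. It lay in a bivalent state for 16, or 45.7%, beside 20.6% of genes, with Oas2, Mx1, Ifi44, Zbp1 and Trim30a in K and Ifit2, Ifit3, Ifit3b, Isg15, Rsad2, Oas1a, Oas1g, Oasl1, Rtp4, Xaf1 and Bst2 in L. No start lay in M, which holds 5.74% of genes. Oas3 and Ifi27l2a lay in the Polycomb state O, which covered 1000 bp to either side of both.

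Genes of like roles started in different states. The sensors Ddx58 and Ifih1 and the factors Irf7, Irf9 and Stat2 started in A, B or C, but so did Usp18, Cmpk2, Parp9 and Ifit1, whose neighbours Ifit2 and Ifit3 on chromosome 19 started in L. Mx2 started in C and Mx1, next to it on chromosome 16, in K. Between libraries, the highest was a median of 87.8-fold above the lowest for 14 genes with a bivalent start and of 24.7-fold for 17 genes with a start in A to D, with ranges of 10.2 to 468 and 2.14 to 752 that overlap. With the starts of all annotated transcripts, 21 genes had at least 1 in a bivalent state and 20 in A to D. Of the genes called at 25 weeks without replicates 1, Mx1 and Rtp4 had bivalent starts and Irf7 and Cmpk2 starts in A.

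Per length of exon, levels could be compared between genes. At the median of the 16 libraries Lgals3bp stood at 104 CPM per kb and the other 34 genes between 0.0357 (Oas3) and 9.47 (Bst2) CPM per kb. The genes with a start in A to D had a median of 3.05 CPM per kb and the bivalent ones of 1.13 CPM per kb, with ranges that overlap. In the highest library of each gene the order changed, with Ifit1 at 828, Ifit3 at 318, Rsad2 at 269 and Isg15 at 197 CPM per kb ahead of Lgals3bp at 178, and the medians were 46.6 CPM per kb for starts in A to D and 57 CPM per kb for bivalent ones. Ifi44, Zbp1 and Oas3 stayed below 4 CPM per kb in every library.

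**Figure D5:**
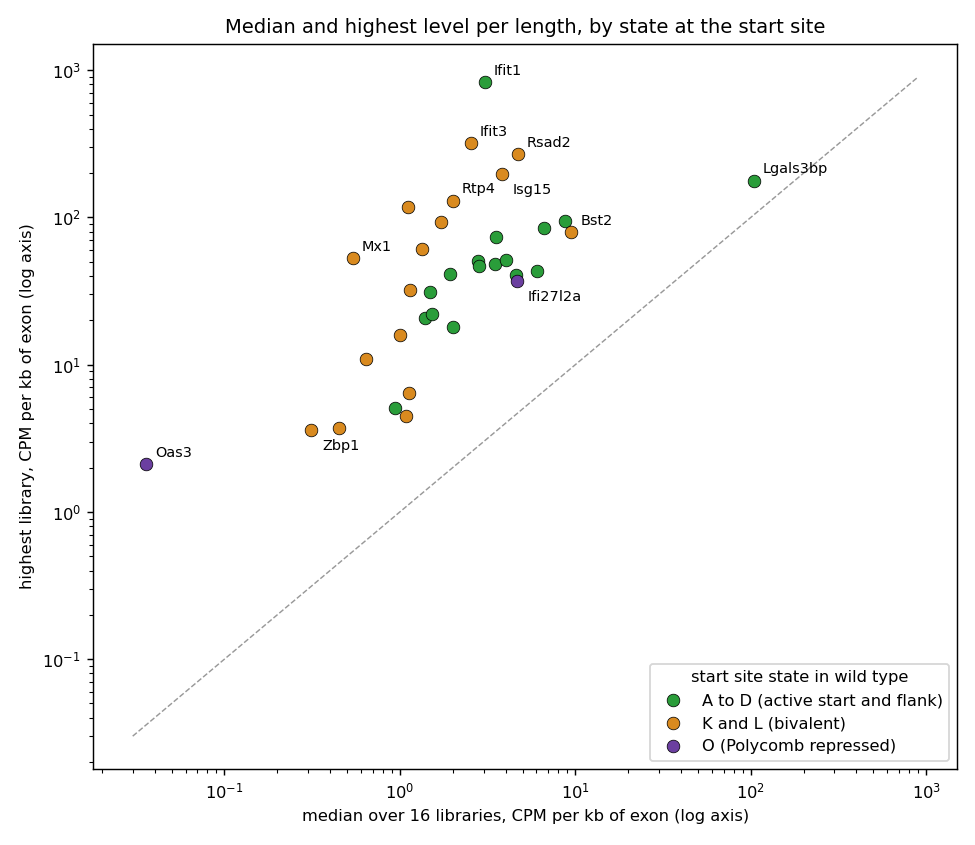
Each point is 1 of the 35 genes, placed by its median CPM per kb of exon over the 16 libraries (horizontal, log axis) and by the CPM per kb in its highest library (vertical, log axis), and coloured by the state at its start site in wild-type islets. The dashed line marks equal values, Lgals3bp lies nearest to it, and Ifit1 (active start) and Ifit3, Rsad2 and Isg15 (bivalent starts) reach the highest levels.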

How the data were processed

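RNA-seq counts per gene of whole islets were deposited for 16 libraries, and every count column was matched to a sample. Per the paper's methods, the authors aligned paired reads to GRCm38 with TopHat2 2.0.13 and counted them over GENCODE genes with featureCounts (Subread 1.5.0-p1), with strand use not stated. The authors also deposited a chromatin segmentation with a state letter per bin of 200 bp and no levels. The single-cell barcode list was not used here. Of 47937 genes, 47224 were matched to GENCODE names. Genes were filtered by filterByExpr, scaled by TMM and fitted with edgeR 4.0.16 (quasi-likelihood, 6 groups, no covariate) in R 4.3.3, with Benjamini-Hochberg adjustment over 18828 genes and calls at an adjusted p under 0.05. DESeq2 1.42.0, other scalings, a prior count of 0.5 against 2, no filter, a replicate block and leaving libraries out were alternatives. The fit was tested on simulated data. Log2 CPM used a prior count of 2, and levels per kb the union of exons. Depth limits low genes: 3 reads, the floor for a count of 0, covers counting error only. Values in every library are given for 18 listed genes chosen by name, for those called between βEedKO and wild type in any setting and, chosen after its values were seen, for Mx2. Other genes were named where they were interferons, receptors or among the 10 nearest in profile. Single cell type markers were named after their values were seen, and other called markers are given as counts. The members and lists were chosen with earlier results of these data known. Some results are not reported here.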

Additional observations from a re-analysis of the deposited data

How the results depend on the processing

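DESeq2's size factors, library size alone and no filter on low counts left the member counts of all 6 comparisons at 0, as did a fit of wild type and βEedKO only for the comparisons of these genotypes. A prior count of 0.5 was applied to the centred levels only and moved none by more than the spread between replicates. The rest is given by setting. DESeq2's test called 28 members between heterozygous and wild type at 8 weeks, where it called 2.16% of all genes. Between the ages of wild type it called 25, beside 1.29% of all genes. Without replicates 1 at 8 weeks (chosen after seeing the data), 4 members were called for βEedKO at 25 weeks, beside 15.4% of all genes. In that setting 34 were called for heterozygous at 8 weeks, beside 11.6%, and 32 for age, beside 15.2%. Without the 4 libraries (also chosen after seeing the data), the medians were -0.60 for heterozygous at 8 weeks and -0.18 for age. Ifit1 and Isg15 turned to -0.66 and -1.16 for βEedKO at 8 weeks and Ifit1 to 0.29 for age. The calls for βEedKO at 25 weeks in that setting are given above with the share of all genes. Correlations of the deviations of same-numbered libraries of different groups ran from -0.02 to 0.46. The highest of all pairs compared, 0.457, was between replicates 1 of wild type and βEedKO at 8 weeks. Next came 0.45, between wild-type replicate 3 and βEedKO replicate 5 of that age. Whether the numbers mark shared preparations was not tested. With the replicate number as a block, no member was called, the median for βEedKO at 8 weeks was -0.37 with 31 members lower, that of the difference between the knockout effects was 0.84 with 32 higher, the median for heterozygous at 8 weeks was -1.90, and Ifit1 and Isg15 turned to -0.81 and -0.11 for βEedKO at 8 weeks. With library size alone the median centred level was -1.48 in heterozygous replicate 1 at 8 weeks, and -0.67, -1.22 and 0.45 in wild-type replicates 3 and 4 and βEedKO replicate 3 at 25 weeks. Counting the starts of all transcripts, 5 members had a start in states N to P. Leaving out each library in turn gave 0 to 27 called members for heterozygous at 8 weeks, with 3.2% of all genes at the 27. It gave 0 to 1 for age, with 0.144% of all genes at the 1, and 0 in the other comparisons. The medians then ran from -0.04 to 0.95 for βEedKO at 8 weeks, from 0.0664 to 0.712 at 25 weeks, from -4.02 to -2.99 for heterozygous at 8 weeks, from -0.19 to 0.03 at 25 weeks, from -3.53 to -2.53 for age and from -0.45 to 0.46 for the difference between the knockout effects. Isg15 and Oasl1 for βEedKO at 25 weeks ran from -0.71 to 1.58 and from -0.59 to 2.72. No member was called for heterozygous at 25 weeks or for the difference between the knockout effects under any alternative run. The causes of these shifts were not tested.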
